A study of Homo sapiens with 16 samples.

Results

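The genes described here set the level and activity of the hypoxia-inducible transcription factors (HIF): the alpha subunits HIF1A, EPAS1 and HIF3A, their partner ARNT, the ubiquitin ligase component VHL, the prolyl hydroxylases EGLN1, EGLN2 and EGLN3, and the asparagine hydroxylase HIF1AN. The members were the probe sets that the array annotation assigns to one of these 9 genes and to no other, which gave 30 of the 54675 probe sets on the array. The rule used gene names and no measured value.

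The study grew 8 established human lung cancer cell lines in 3D and in 2D and profiled their RNA. The 3D cells were plated on a thin Matrigel layer, a basement membrane extract, and overlaid with medium holding 2% Matrigel, while the 2D cells grew on tissue culture plastic. The labels call the 2D cells untreated and name no agent for the 3D cells other than Matrigel, and the series text states similar density and medium. The lines H1437, H1703, H23, H358, H460, H661, A427 and A549 were each profiled with 1 array from 3D and 1 from 2D, which makes 8 pairs.

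A HIF transcription factor is a pair of an alpha subunit and ARNT. When oxygen is present, the EGLN enzymes hydroxylate prolines of the alpha subunit, VHL binds the hydroxylated form, and the alpha subunit is ubiquitinated and degraded. HIF1AN hydroxylates an asparagine and so blocks binding of coactivators. This control acts largely on protein, and the arrays measured only RNA. EGLN1 and EGLN3 are themselves known HIF targets, and in the lung EPAS1 is known from endothelial and type II alveolar cells.

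HIF binds the letters ACGTG or GCGTG, the core of the hypoxia response element. The promoter windows of HIF1A, EPAS1, EGLN1 and EGLN3 are shown because the culture differences of these genes are set against each other below. Each window is the 250 bases before the gene's start in RefSeq (GRCh38.p14), read 5′ to 3′ on the gene's strand, with any match to either motif in capitals. The positions are chr14:61695263-61695512 on the plus strand for HIF1A, chr2:46297157-46297406 on the plus strand for EPAS1, chr1:231422288-231422537 on the minus strand for EGLN1 and chr14:33951075-33951324 on the minus strand for EGLN3.
HIF1A: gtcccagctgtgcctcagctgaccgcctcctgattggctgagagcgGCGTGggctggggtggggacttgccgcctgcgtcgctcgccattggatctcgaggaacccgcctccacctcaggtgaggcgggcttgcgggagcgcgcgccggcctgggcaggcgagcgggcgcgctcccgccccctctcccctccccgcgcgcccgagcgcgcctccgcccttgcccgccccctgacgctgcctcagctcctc
EPAS1: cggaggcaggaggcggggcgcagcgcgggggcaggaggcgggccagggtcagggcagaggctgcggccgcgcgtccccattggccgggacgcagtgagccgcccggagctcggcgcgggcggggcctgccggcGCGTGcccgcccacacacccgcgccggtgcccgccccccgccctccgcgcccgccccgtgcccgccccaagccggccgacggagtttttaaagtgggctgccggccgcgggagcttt
EGLN1: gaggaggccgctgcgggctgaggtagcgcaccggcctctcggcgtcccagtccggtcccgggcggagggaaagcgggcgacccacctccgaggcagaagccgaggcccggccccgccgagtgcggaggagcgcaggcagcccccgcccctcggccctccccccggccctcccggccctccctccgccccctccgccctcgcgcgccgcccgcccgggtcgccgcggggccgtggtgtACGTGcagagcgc
EGLN3: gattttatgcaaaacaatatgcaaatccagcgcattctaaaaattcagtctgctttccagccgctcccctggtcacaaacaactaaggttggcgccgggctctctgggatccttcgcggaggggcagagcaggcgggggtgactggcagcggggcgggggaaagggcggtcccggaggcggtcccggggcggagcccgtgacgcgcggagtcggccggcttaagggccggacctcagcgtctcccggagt
Both motifs were searched on both strands, and matches can overlap, since ACGTG ends in the G with which GCGTG begins. EGLN1 held 1 ACGTG, whose bases lie 13 to 9 before the start. EPAS1 held 1 GCGTG at 117 to 113 bases before the start, and HIF1A held 1 GCGTG at 204 to 200 bases before it. The EGLN3 window held neither string of letters. HIF1A has another window in RefSeq, and 12 windows of 8 member genes were matched in all, of which 5 held either motif. Among all 35116 promoter windows of this length, 18.5% held ACGTG, 32.2% held GCGTG and 43.2% held either, so a match in itself is common.

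The deposited values are log2 ratios of each probe set to its own reference. What that reference is was inferred from the values. For 63.5% of probe sets the median over the 16 arrays equals the reference, so the reference was taken to be that median. The others lay under their reference at the median, as dim probe sets do when divided by a fixed minimum, and none lay above it. A value of 1 on this scale is therefore a 2-fold difference from that probe set's own reference, and levels of different genes or probe sets cannot be compared. The lowest deposited ratio was 0.01, before the log2 was taken. An array gives no read depth, and the number of arrays limits the precision. In these bulk samples, fewer cells that express a gene and less RNA per cell cannot be told apart. The 18S rRNA control probe sets of the array were lower in 3D in 8 of 8 lines, with 3D minus 2D between -3.45 in H23 and -0.08 in H1437. Of the marker genes listed for lung epithelial cells, 10 of 10 had a probe set at its reference, against 2 of 5 for endothelial cells and 4 of 7 for leukocytes. With the test described below, none of the 38 tested marker probe sets (fibroblast markers included, 8 of 8 genes) was called different between the cultures. An unadjusted p under 0.05 was found in 3 of the 38, beside 9036 of all 34669 tested probe sets.

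Of the 30 member probe sets, 21 in 8 genes had a median at their reference and were tested, and 9 were dim. The dim ones comprised 6 of the 7 HIF3A probe sets, 1 of 3 for EPAS1, 1 of 7 for ARNT and the only EGLN2 probe set under the rule. EGLN2 has no tested member, since 2 further probe sets of the gene are annotated also to a readthrough transcript with RAB4B and fall outside the rule. EGLN2 probe set 227147_s_at ran from -1.44 to -1.04 in 3D and from -1.46 to -1.33 in 2D, with a mean difference of 0.06 ± 0.10 (SD, n = 8 lines). Among the dim HIF3A probe sets, H661 read 1.08 in 3D, against -0.28 in 2D, with 1556069_s_at, and 0.84 in 3D, against -0.35 in 2D, with 222124_at. H358 read -0.43 in 3D, against -1.05 in 2D, with 1556069_s_at. Over all lines the mean differences of these 6 probe sets lay between -0.10 and 0.31.

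The first comparison asked whether the members differ between 3D and 2D across the lines. Of the 21 tested member probe sets, 2 fell in 3D and none rose. These were 1559227_s_at of VHL, 2.90-fold lower in 3D, and 233724_at of ARNT, 1.96-fold lower, and other probe sets of the same genes gave other values. In the fit over the whole array, 7.11% of the 34669 tested probe sets were called, 2.67% higher and 4.44% lower in 3D, so the members' 2 of 21 lies near the background. The test was limma's moderated test with the line as a block, called at a Benjamini-Hochberg adjusted p under 0.05. The median difference of the 21 probe sets was 0.03, beside -0.01 for all tested probe sets (log2, 3D minus 2D). At an unadjusted p under 0.05 there were 10 of the 21, 5 higher and 5 lower in 3D, beside 9036 of all 34669 tested. The cell lines come without replicate arrays, so a difference within a single line has no replicate check.

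**Figure D1:**
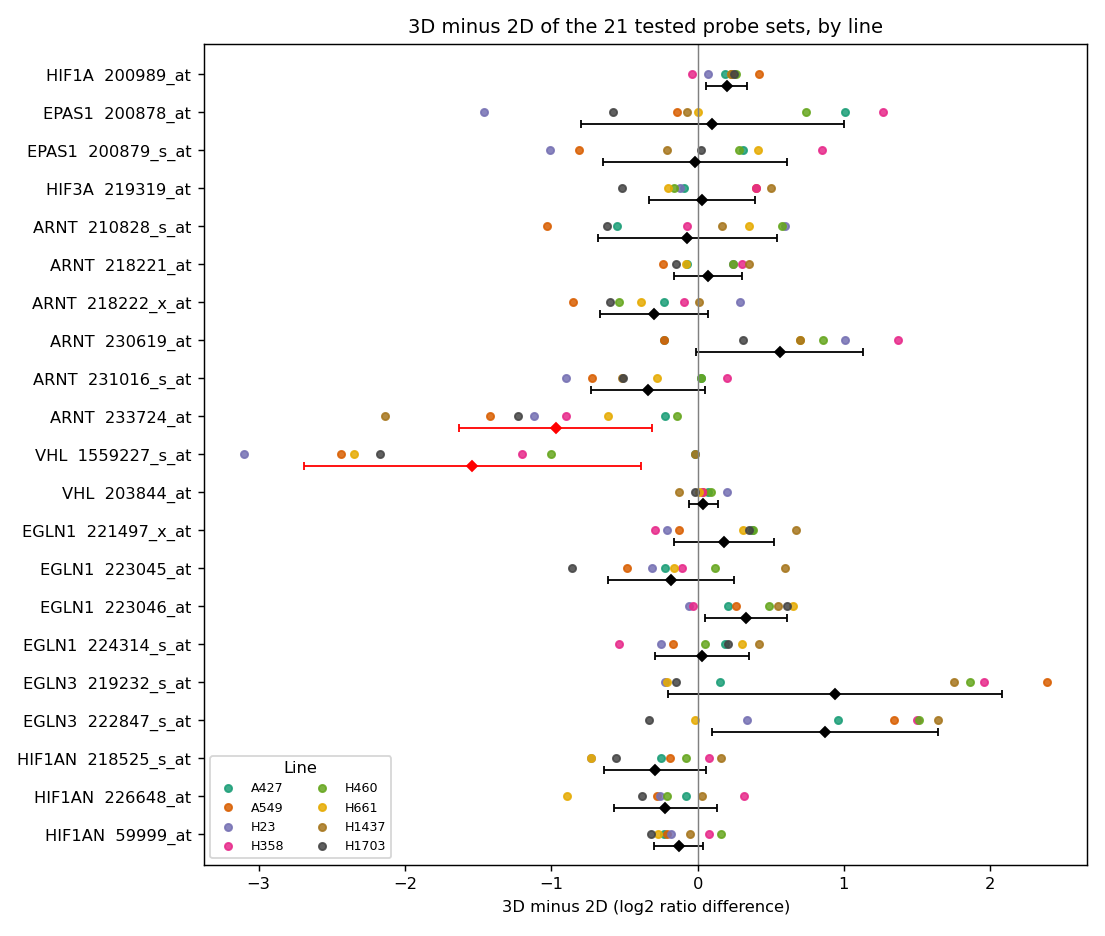
The 3D minus 2D difference (log2) of the 21 tested probe sets, with 1 point per line and a diamond with bars below it for the mean and SD of the 8 lines. The red diamonds mark the called probe sets, VHL 1559227_s_at at -1.54 and ARNT 233724_at at -0.97, and both EGLN3 probe sets show lines spread from near 0 to above 1.

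Among the alpha subunits, HIF1A, the oxygen-regulated subunit found in most cells, was measured by a single probe set, 200989_at. In 3D it read -0.96 in A427, 0.83 in A549, -0.04 in H23, 0.55 in H358, 0.30 in H460, -0.45 in H661, 0.87 in H1437 and -1.08 in H1703. In 2D it read -1.15 in A427, 0.41 in A549, -0.10 in H23, 0.59 in H358, 0.04 in H460, -0.69 in H661, 0.64 in H1437 and -1.34 in H1703. The 3D array was the higher one in 7 of 8 lines, H358 being the exception, while the ranges of the cultures overlapped almost wholly. The mean difference was 0.20 ± 0.14 (SD, n = 8 lines), which did not pass the test (limma, adjusted p = 0.112; exact two-sided sign-flip p = 0.0156, unadjusted).

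EPAS1, the alpha subunit also called HIF-2 alpha, did not pass the test with either tested probe set. In 3D, 200879_s_at read -1.29 in A427, 2.69 in A549, -0.13 in H23, 0.60 in H358, 0.39 in H460, -1.49 in H661, 2.71 in H1437 and -1.28 in H1703. In 2D it read -1.60 in A427, 3.50 in A549, 0.88 in H23, -0.25 in H358, 0.12 in H460, -1.90 in H661, 2.93 in H1437 and -1.30 in H1703. The cultures overlapped, and the lines differed in sign: H358 was higher in 3D by 0.85 while H23 gave -1.01. The mean difference was -0.02 ± 0.63 for 200879_s_at (limma, adjusted p = 0.960) and 0.10 ± 0.90 for 200878_at (adjusted p = 0.862; SD, n = 8 lines each). With 200878_at, H358 was again higher in 3D, by 1.27, and H23 lower, with a difference of -1.46. That spread is wide: the SD of 200878_at over lines was larger than that of 96.8% of tested probe sets. H661 stood at the lowest deposited value with 200878_at in both cultures, so its difference there was not measured. HIF3A, an alpha subunit whose short forms can act as inhibitors, gave 0.03 ± 0.36 with its tested probe set 219319_at (adjusted p = 0.909).

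EPAS1 minus HIF1A, taken as the difference of their 3D minus 2D values, was -0.17 ± 0.78 (SD, n = 8 lines), with EPAS1 the higher in 3 of 8 lines. The exact sign-flip permutation test, two-sided over the lines, gave p = 0.562, also after adjustment over the 2 gene contrasts computed. The difference was thus well within the spread of the lines.

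**Figure D2:**
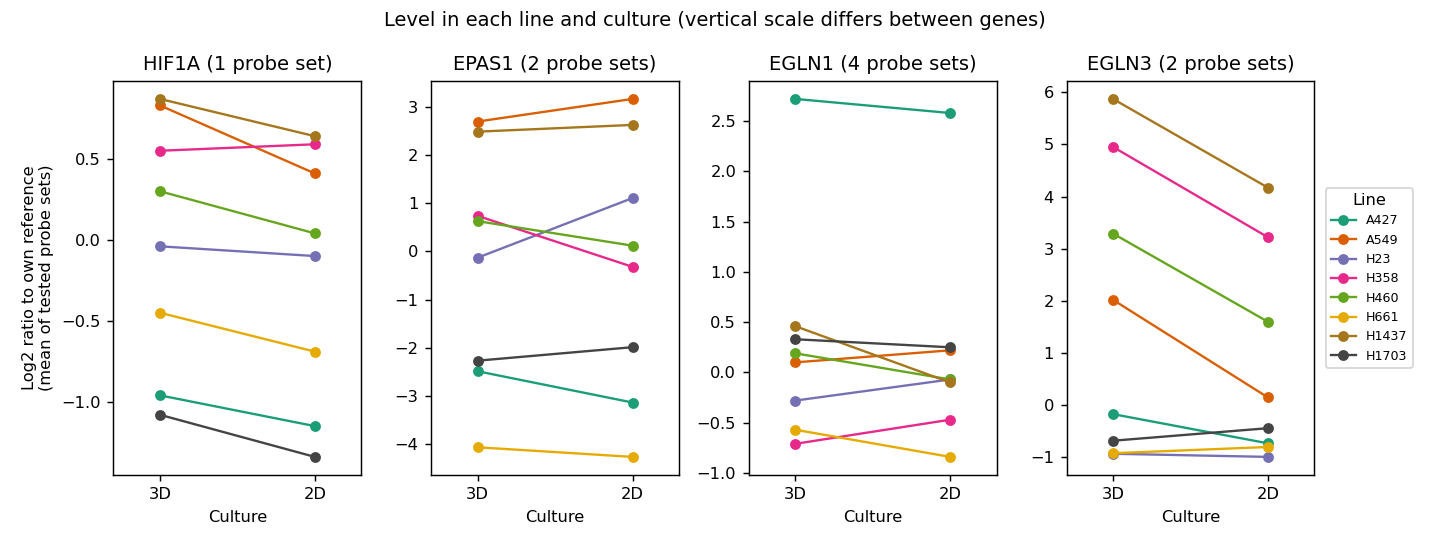
Log2 ratio to the own reference (vertical axis) in 3D and 2D for HIF1A, EPAS1, EGLN1 and EGLN3, as the mean of the tested probe sets, with 1 coloured line per cell line. The order of the lines stays much the same in both cultures for HIF1A, A427 stands alone for EGLN1, and EGLN3 slopes from a higher 3D value in 4 lines, with differences of 1.68 to 1.87.

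The subunit ARNT, the partner shared by all alpha subunits, had 6 tested probe sets that differed among themselves. Probe set 233724_at read between -0.88 and -0.02 in 3D, with a median of -0.24, and between 0.02 and 1.70 in 2D, with a median of 0.45. The 3D and 2D arrays did not overlap, which held for 0.0750% of all tested probe sets. By line, 3D minus 2D was -0.22 in A427, -1.42 in A549, -1.12 in H23, -0.90 in H358, -0.14 in H460, -0.61 in H661, -2.14 in H1437 and -1.23 in H1703. The probe set fell in 3D, with a mean difference of -0.97 ± 0.66, and was lower in 8 of 8 lines (limma, adjusted p = 0.0259; exact two-sided sign-flip p = 0.00781, the smallest that 8 lines can give). A difference of the same sign in all 8 lines was found in 7.93% of all tested probe sets.

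Probe set 230619_at lay on the other side, at 0.56 ± 0.57 and higher in 6 of 8 lines, without passing the test (limma, adjusted p = 0.0799). The other 4 ARNT probe sets gave means of -0.34 for 231016_s_at, -0.30 for 218222_x_at, -0.07 for 210828_s_at and 0.07 for 218221_at, none of them called. The difference between 230619_at and 233724_at in their 3D minus 2D values was 1.54 ± 0.88 and passed limma's test over all pairs of probe sets of a gene (adjusted p = 0.00825). Over the 16 arrays these 2 probe sets had a Pearson correlation of -0.25, while the median over all such pairs on the array was 0.72. The ARNT call rests on 1 of 6 probe sets, and the gene's mean over its probe sets was not called.

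VHL, the subunit of the ligase that binds the hydroxylated alpha subunit, had 2 probe sets that gave different answers. Probe set 1559227_s_at read -0.01 in A427, -1.92 in A549, -1.89 in H23, -0.52 in H358, -0.13 in H460, -0.92 in H661, -0.17 in H1437 and 0.50 in H1703 in 3D. In 2D it read 0.01 in A427, 0.52 in A549, 1.21 in H23, 0.68 in H358, 0.86 in H460, 1.43 in H661, -0.15 in H1437 and 2.67 in H1703. Every line was lower in 3D, yet A427 and H1437 gave only -0.02, and the ranges of the cultures overlapped. The mean difference was -1.54 ± 1.15 (SD, n = 8 lines), and the probe set fell in 3D (limma, adjusted p = 0.0308; exact two-sided sign-flip p = 0.00781). The SD of that difference was larger than in 99.0% of tested probe sets.

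Probe set 203844_at of VHL stayed between -0.15 and 0.26 in 3D and between -0.09 and 0.10 in 2D. Its difference was 0.04 ± 0.10 (limma, adjusted p = 0.765), and its SD over the 16 arrays was lower than that of all but 1.72% of tested probe sets. The 2 probe sets differed from each other by -1.57 ± 1.20 in their 3D minus 2D values (limma over pairs, adjusted p = 0.0203), and their correlation over the 16 arrays was -0.16. Averaged over both probe sets, VHL gave -0.75 ± 0.55 and was called in a fit over 14113 genes (adjusted p = 0.0352), in which 6.09% of genes were called.

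The 18S controls and VHL 1559227_s_at were each lower in 3D in all 8 lines, and whether the 2 are related was not tested. The 18S difference was -3.45 in H23 (VHL -3.10), -0.08 in H1437 and -0.13 in A427 (VHL -0.02 in both). The order of the other 5 lines was not shared: the 18S difference was -1.61 in H460 (VHL -0.13 in 3D, against 0.86 in 2D), -1.23 in H661 (VHL -2.35), -0.98 in A549 (VHL -2.44), -0.94 in H1703 (VHL -2.17) and -0.81 in H358 (VHL -1.20). With the 18S level of each array as a covariate, the VHL difference was -0.60 (limma, adjusted p = 0.618). The ARNT 233724_at difference was -1.07 (adjusted p = 0.379), and 2 probe sets of the whole array were called. Since 18S was lower in 3D in all 8 lines, the 18S level and culture are confounded, and this fit cannot tell them apart. Leaving out any one of A549, H23, H358, H460, H661 or H1703 also ended the VHL call, with differences of -1.61 to -1.31 and adjusted p of 0.0599 to 0.0711, and leaving out A549, H23, H358 or H1703 ended the ARNT call, with -0.98 to -0.91 and 0.0549 to 0.0621.

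**Figure D3:**
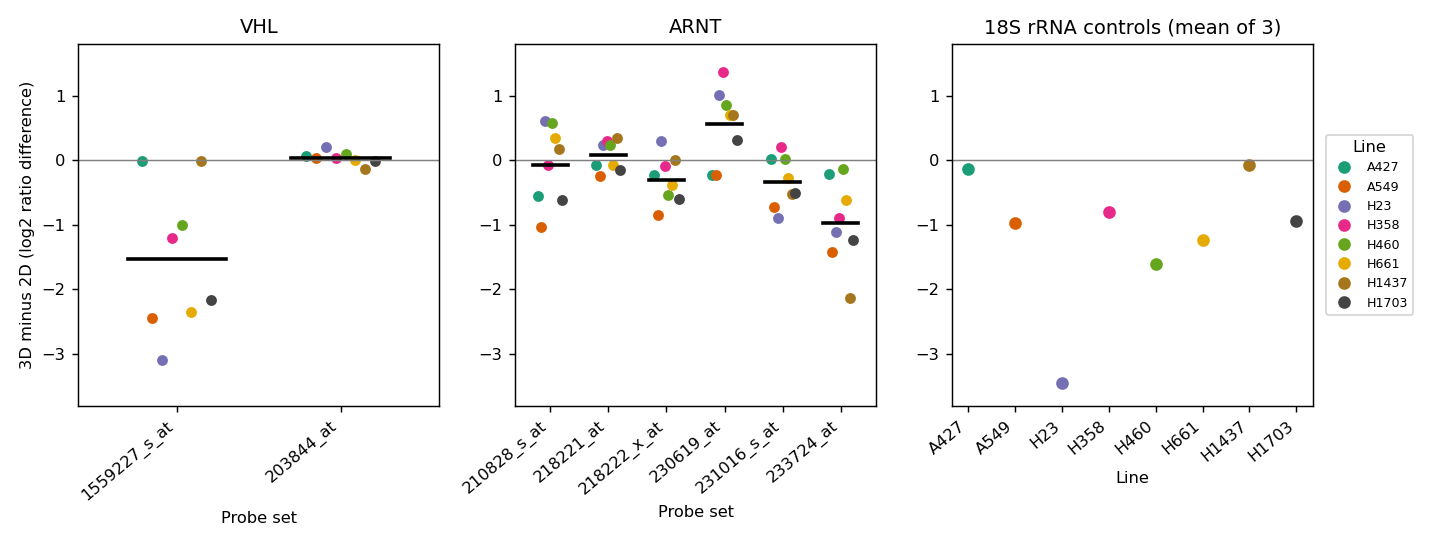
The 3D minus 2D difference (log2) of each line for the tested VHL and ARNT probe sets, with the mean as a black bar, beside the mean of the 3 18S rRNA control probe sets by line. VHL 203844_at lies at 0.04 while 1559227_s_at spreads down to -3.10 in H23, the line in which the 18S controls also differed most, by -3.45.

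EGLN1, regarded as the main oxygen-sensing prolyl hydroxylase, did not pass the test with any of its 4 probe sets. The mean differences were 0.33 ± 0.28 for 223046_at, 0.18 ± 0.34 for 221497_x_at, 0.03 ± 0.32 for 224314_s_at and -0.18 ± 0.43 for 223045_at (SD, n = 8 lines; limma, adjusted p from 0.0747 to 0.910). Of their 6 pairs only 223046_at and 224314_s_at differed from each other, by 0.31 ± 0.18 and positive in 8 of 8 lines (limma over pairs, adjusted p = 0.0410). That call was lost without A549, H23, H358, H460, H661 or H1703 (adjusted p from 0.0633 to 0.0988), and without H1437 the pair 223045_at and 223046_at was called as well (adjusted p = 0.0432). The 4 probe sets nevertheless had Pearson correlations of 0.83 to 0.99 with each other over the 16 arrays. A427 stood far above the other lines with each of them, which weighs on these correlations. The order of the other lines was shared only in part: H1703 had rank 2 with 223045_at and rank 5 with 223046_at.

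EGLN3, a prolyl hydroxylase strongly induced by HIF in many cells, showed the widest culture differences of the hydroxylases, but they did not pass the test. In 3D, 222847_s_at read -0.18 in A427, 1.50 in A549, -1.12 in H23, 4.96 in H358, 3.16 in H460, -1.19 in H661, 5.40 in H1437 and -1.04 in H1703. In 2D it read -1.14 in A427, 0.16 in A549, -1.46 in H23, 3.46 in H358, 1.66 in H460, -1.17 in H661, 3.76 in H1437 and -0.70 in H1703. The 3D array was the higher one in 6 of 8 lines, and the cultures overlapped because the lines lay so far apart. The mean difference was 0.87 ± 0.77 for 222847_s_at (limma, adjusted p = 0.0591; exact two-sided sign-flip p = 0.0391, unadjusted) and 0.94 ± 1.14 for 219232_s_at (adjusted p = 0.130; exact p = 0.117). The probe sets correlated at 0.98 over the 16 arrays, and their culture differences differed by 0.07 ± 0.59 (adjusted p = 0.832).

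Averaged over both probe sets, EGLN3 was higher in 3D by 3.65-fold in A549, 3.32-fold in H358, 3.25-fold in H1437 and 3.21-fold in H460, and by 1.47-fold in A427. The ratio of 3D to 2D was 1.04 in H23, 0.923 in H661 and 0.845 in H1703. The lines with the 4 largest differences were also those with the 4 highest EGLN3 values in 2D. These were 4.17 in H1437, 3.22 in H358, 1.60 in H460 and 0.15 in A549, followed by -0.44 in H1703. The 2D values are also part of the differences, so the 2 are not independent. Whether the response differs between lines could not be tested, since each line has 1 array per culture.

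EGLN3 minus EGLN1 in the 3D minus 2D values was 0.81 ± 0.96 (SD, n = 8 lines), with EGLN3 the higher in 6 of 8 lines. The exact two-sided sign-flip permutation test gave p = 0.0703, and 0.141 after adjustment over the 2 gene contrasts. Without H661 or without H1703 the difference was 0.98 and the unadjusted exact p 0.0469.

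HIF1AN, the asparagine hydroxylase, gave negative means with each of its 3 probe sets. The mean differences were -0.29 ± 0.35 for 218525_s_at, -0.22 ± 0.35 for 226648_at and -0.13 ± 0.17 for 59999_at, each lower in 6 of 8 lines. None passed the test (limma, adjusted p of 0.160, 0.265 and 0.333), and none of the 3 pairs of HIF1AN probe sets differed (adjusted p from 0.331 to 0.675).

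Over all 9 genes, 27 pairs of tested probe sets of a gene could be compared, and 11 passed the test. Of these, 9 of 15 were ARNT pairs, 1 of 1 was the VHL pair and 1 of 6 was an EGLN1 pair, with none for EPAS1, EGLN3 and HIF1AN. On the whole array 13.9% of 24438 such pairs were called. The pairs of a gene share probe sets and arrays and so are not independent of each other. For ARNT, 4 of the called pairs held 233724_at and 5 held 230619_at, 1 of them being the pair of these 2. The 11 called pairs came to 7 without A549, H460 or H661 and to 6 without H358 or H1703.

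The second comparison asked how the members differ between the lines, with the culture as a term in the same fit. By limma's moderated F-test, 17 of the 21 member probe sets differed between lines, against 76.2% of all tested probe sets, so line differences of this kind were common on the array. The 4 that were not called were both VHL probe sets, HIF3A 219319_at and ARNT 233724_at, and of these VHL 1559227_s_at was called with the 18S level as a covariate (adjusted p = 0.0188). Neighbouring lines are called apart here when the 2 arrays of one line do not overlap with the 2 arrays of the next.

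HIF1A was highest in H1437, A549 and H358, at 0.76, 0.62 and 0.57 as means of the 3D and 2D arrays, and these neighbours overlapped. H460 followed at 0.17, H23 at -0.07 and H661 at -0.57, each apart from the next. A427 at -1.05 and H1703 at -1.21 were lowest and overlapped. The range from H1437 to H1703 was 3.91-fold (limma F-test, adjusted p = 3.31e-06).

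EPAS1 was highest in A549 and H1437, at 3.10 and 2.82 with 200879_s_at, apart from all other lines. H23, H460 and H358 followed at 0.38, 0.25 and 0.17 and overlapped. H1703, A427 and H661 were lowest at -1.29, -1.45 and -1.70, again overlapping, and the range from A549 to H661 was 27.8-fold (adjusted p = 7.60e-06). With 200878_at the lines came in the same order, H1703 at -2.97, A427 at -4.18 and H661 at the lowest deposited value. H1703, A427 and H661 were thus the 3 lowest lines for both HIF1A and EPAS1.

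EGLN3 had the widest range between lines of the members without values at the lowest deposited ratio, 67.8-fold with 219232_s_at (limma F-test, adjusted p = 0.000103) and 58.7-fold with 222847_s_at (adjusted p = 5.45e-06). With 219232_s_at the means of the 2 arrays were 5.45 in H1437, 3.96 in H358, 2.48 in H460 and 1.34 in A549, and each of these overlapped with the next. The other 4 lines lay between -0.63 in H23 and -0.24 in A427.

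EGLN1 was high in a single line. A427 lay above the mean of the other 7 lines by 3.14 with 221497_x_at, 3.09 with 224314_s_at, 2.46 with 223045_at and 2.36 with 223046_at, which are 8.84-fold, 8.54-fold, 5.50-fold and 5.15-fold. All 4 probe sets differed between lines (limma F-test, adjusted p from 5.29e-06 to 0.000126). Without A427, 223045_at no longer differed between the remaining lines (adjusted p = 0.321), while the other 3 probe sets still did. The A427 arrays carried EGLN3, by contrast, at -0.16 in 3D and -0.31 in 2D with 219232_s_at, among the low lines.

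ARNT with 218221_at was highest in H1437 at 1.29, H23 at 1.26 and H1703 at 1.22, which overlapped with each other and were apart from the rest. The lowest line was A549 at -0.62. VHL 203844_at spanned only 1.18-fold between lines, and each HIF1AN probe set differed between lines with adjusted p of 0.0109 (218525_s_at), 0.0132 (226648_at) and 0.00200 (59999_at). The call of HIF1AN 226648_at was lost without H460 (adjusted p = 0.134), and that of ARNT 230619_at without H661 (0.0653) or H1437 (0.134).

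The probe sets whose values over the 16 arrays most resembled a member's were looked up by Pearson correlation, as a description, since the arrays of a line share their line. For EGLN3 222847_s_at they belonged to MYO5B (0.969), FURIN (0.956) and S100P (0.955), and for EPAS1 200878_at to FOSL2 (0.955), RAB27B (0.952) and THRB (0.945). For HIF1A 200989_at they belonged to CD44, JMJD8 and NUP62CL, each at 0.934, and for EGLN1 221497_x_at to IPMK (0.945), SYTL3 and CAMK4 (both 0.942). For VHL 1559227_s_at they were CRCP (0.897), RPS19BP1 (0.874) and COA7 (0.845), and for ARNT 218221_at ZNF24 (0.887), BCL9 (0.886) and VPS52 (0.884).

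The surroundings of the pathway were counted from gene lists, of which the HIF targets moved most. Of 20 listed HIF target genes, 19 had tested probe sets, and 19 of their 34 tested probe sets rose in 3D in 11 genes while none fell. That is 55.9% of them, beside 2.67% called higher on the array, and their median difference was 0.82, beside -0.01. This list and those below were chosen with earlier results of these data known, so their shares are descriptions and not independent evidence. BNIP3L, a mitophagy receptor, rose by 1.23 ± 0.41 (limma, adjusted p = 0.00504), and PGK1, a glycolytic kinase, by 0.89 ± 0.37 (adjusted p = 0.00956). PFKFB4, which sets the level of a glycolytic activator, rose by 1.12 ± 0.53 with 228499_at (adjusted p = 0.0129), while its other tested probe set gave 0.07. ERO1A, an oxidase of protein folding, rose by 0.83 ± 0.37 (adjusted p = 0.0129). The count was 10 without H23, 12 without H358, 11 without H460 and 11 without H1703, and 0 with the 18S level as a covariate. That setting left 2 probe sets called on the whole array and none in the lists that follow.

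The line medians of the 34 HIF target probe sets were 1.04 in H661, 0.90 in H1703, 0.71 in A549, 0.64 in H1437, 0.60 in H460, 0.59 in H23, 0.51 in A427 and 0.40 in H358. Every line was above 0. H661 and H1703, with the highest target medians, were the 2 lines in which the mean of the 2 EGLN3 probe sets was not higher in 3D, at -0.12 and -0.24. H358, with the lowest target median, had EGLN3 at 1.73. The pattern was not general: A549 had the largest EGLN3 difference, 1.87, and a target median of 0.71. In H23 the EGLN3 probe sets differed in sign, with -0.22 for 219232_s_at and 0.34 for 222847_s_at. A relation between EGLN3 and the targets over lines was not tested. These are values of single lines with no replicate check.

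**Figure D4:**
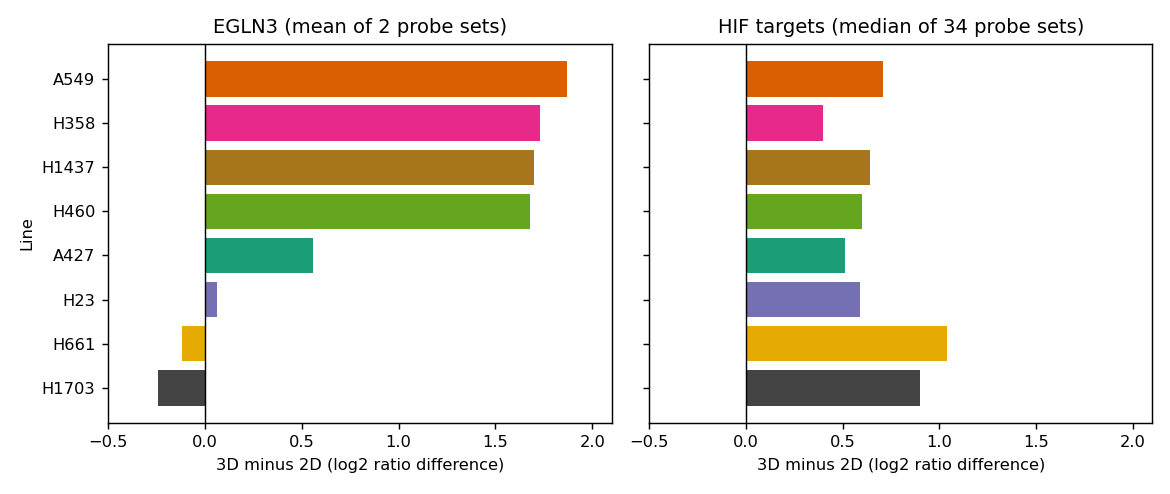
The 3D minus 2D difference (log2) by line, for EGLN3 as the mean of 2 probe sets and for the HIF targets as the median of 34 probe sets, with lines in the order of EGLN3. The target medians lie between 0.40 and 1.04 in all 8 lines, while EGLN3 runs from -0.24 in H1703 to 1.87 in A549.

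In the list of related dioxygenases, iron-dependent enzymes that use oxygen as the EGLN proteins do, 6 of 34 tested probe sets rose in 5 of 15 genes and none fell. That is 17.6% called, beside 7.11% of all tested probe sets, and the median was 0.15, beside -0.01. The collagen prolyl hydroxylases P4HA2 and P4HA1 rose by 1.12 ± 0.52 with 1568611_at (limma, adjusted p = 0.0117) and by 1.11 ± 0.72 (adjusted p = 0.0223). The other 2 P4HA2 probe sets gave 0.04 to 0.82, 1 of them called, and P4HA1 also stands among the HIF targets. ADO, a thiol dioxygenase, rose by 0.42 ± 0.18 with 212500_at (adjusted p = 0.0223), while its other probe set gave 0.08. P4HTM, a membrane-bound prolyl hydroxylase, rose by 0.71 ± 0.51 (adjusted p = 0.0441), a call kept in 1 of 8 fits that leave out a line (without H661; adjusted p of the others up to 0.127). With values under -3 set to -3, the P4HTM difference was 0.46 (adjusted p = 0.0793). The 6 calls came to 2 without H23, 1 without H358 and 2 without H460.

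In the list of the VHL ligase, 9 probe sets in 6 of 7 genes were tested, of which 1 rose and 1 fell. That is 22.2% called, beside 7.11% of all tested probe sets, and the median was -0.07, beside -0.01. CUL2, the scaffold of the ligase, rose by 0.50 ± 0.22 with 203078_at (limma, adjusted p = 0.0175), while its other probe set gave -0.18. ELOB, an adaptor subunit, gave -0.52 ± 0.29 with 213877_x_at and fell (adjusted p = 0.0246), while its other probe set gave -0.07. NEDD8, which activates the scaffold, was at -0.20 and ELOC, the other adaptor, at -0.12 with 202824_s_at, neither called. The other ELOC probe set gave 0.18. The ELOB call was lost without H23, H358, H460, H661 or H1703.

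Other regulators of HIF alpha stability or translation had 31 tested probe sets in 12 of 13 genes. Of these probe sets 4 fell, in 4 genes, and none rose. That is 12.9% called, beside 7.11% of all tested probe sets, and the median was -0.13, beside -0.01. HSP90AA1, a chaperone that binds HIF alpha, fell with a difference of -0.54 ± 0.25 with 211968_s_at (limma, adjusted p = 0.0171), while its other 3 probe sets gave -0.29 to -0.23 and were not called. MTOR, a kinase that promotes HIF1A translation, fell with -0.39 ± 0.20 (adjusted p = 0.0288). SIAH1, a ubiquitin ligase for EGLN proteins, fell with 232365_at only, at -0.86 ± 0.62 (adjusted p = 0.0304), while its other probe sets gave 0.04 to 0.22. FKBP8, known to bind EGLN1, fell with -0.46 ± 0.34 with 40850_at (adjusted p = 0.0446), and its other probe set gave -0.35 and was not called. The 4 calls came to 2 without A549 and to 1 without H23, H358, H460, H661 or H1703. Of 23 tested probe sets of HIF partners and coactivators in 11 genes, limma called none, and the median was -0.05. An unadjusted p under 0.05 was reached by 5 of the 23, beside 9036 of all 34669 tested probe sets. RUVBL1, an ATPase of chromatin complexes, was lowest in p at -0.43, followed by SMARCA4 at -0.32 with 212520_s_at, the acetyltransferase EP300 at 0.25 and RUVBL2 at -0.30. The other 6 tested SMARCA4 probe sets gave -0.16 to 0.06.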

How the data were processed

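RNA of 8 lung cancer lines in 3D and 2D was measured with 1 Affymetrix U133 Plus 2.0 array per line and culture, from 200 ng of total RNA per the labels' protocols. The values used are the log2 ratios the authors deposited, and what software, probe summary and normalization made them is not given in the sources used here. Gene names came from the platform annotation and the RefSeq gene table of GRCh38.p14. In that annotation 41097 probe sets have 1 symbol, 1801 several and 11777 none, and no symbol needed updating. Control probe sets and probe sets whose log2 median over the 16 arrays lay more than 0.001 from 0 were left out, which left 34669. The culture difference was estimated in R 4.3.3 by lmFit and eBayes of limma 3.58.1, with a variance trend and the line as a block. P-values were adjusted over all tested probe sets by Benjamini-Hochberg, with calls under 0.05. The lines differ in origin but no replicate culture of a line was profiled, so p-values measure the spread of the difference over lines. Pairs of probe sets of a gene were fitted by lmFit and eBayes without a variance trend. The values fitted were the differences of the 2 probe sets in 3D minus 2D in the 8 lines. P-values were adjusted over 24438 pairs. Gene contrasts used the mean of tested probe sets and all 256 sign flips of the 8 line differences (two-sided). Tables were handled in Python 3.11.15 with pandas 2.3.3. On simulated data with 34669 probe sets, the 3D minus 2D fit recovered 44.8% of 1.5-fold, 77.6% of 2-fold and 98.5% of 3-fold changes. There, 66 or 67 probe sets per fold were changed by a fixed amount, with independent normal noise. In the data 2464 probe sets were called, so these rates belong to the simulated setting and are not the power for the members. The rule for naming took all members, the up to 4 genes per list lowest in p, and the 3 probe sets most correlated with a member. The members and lists were chosen with earlier results of these data known. Alternatives varied the filter, block, variance model, scaling, 18S level, low values and the lines included. The promoter of VHL and protein sequences were not analysed here.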

Additional observations from a re-analysis of the deposited data

Results flagged for a closer look

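In each culture, the 8 arrays of every tested member probe set and the 8 differences of 3D minus 2D were searched for a value far from the others, by Dixon's test for a single outlying value. Of 63 such groups, 7 had one, where chance gives about 1 in 20, and all 7 were the A427 array for EGLN1. With 221497_x_at A427 read 3.22 in 3D, where the nearest line was at 0.70, and 2.85 in 2D, where the nearest was at 0.34. With 224314_s_at it read 3.04 in 3D, the nearest being 0.36, and 2.85 in 2D, the nearest being 0.24. With 223045_at it read 2.40 in 3D, the nearest being 0.57, and 2.62 in 2D, the nearest being 0.89. With 223046_at it read 2.02 in 2D, the nearest being 0.20. The 4 probe sets measure the same gene in the same RNA and are not independent.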

How the results depend on the processing

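Each result was recomputed with other filters, variance models, scalings, treatment of low values and sets of lines. Of the recomputed values of single probe sets, pairs, genes and lists, 1482 kept their direction and side of the threshold (or stayed close, for counts), 118 lost a call, 4 gained one, 34 counts moved and 22 reversed sign. Of 21 member probe sets under the sign-flip test, 4 with an unadjusted limma p under 0.05 did not reach it. The VHL call at 1559227_s_at passed in 8 of 17 alternatives and the ARNT call at 233724_at in 10 of 17. Their differences over all 17 were -1.80 to -0.60 and -1.09 to -0.80. The VHL pair and the ARNT pair 230619_at and 233724_at were called in all 16 alternatives run for pairs. Some of these could not change a pair's mean difference. Leaving out the variance trend and centring arrays on their medians repeat the main pair fit. The 18S covariate entered the pair fits centred, so the tested mean was not adjusted for 18S. EGLN3 was called in none of 17. With no filter on dim probe sets, 1091 probe sets were called and 0 members. With no replicate block, that is without the pairing by line, 8 probe sets and 0 members were called, and the contrast of EGLN3 and EGLN1 had a permutation p of 0.569. With the 18S level as a covariate, which was itself lower in 3D in every line, 2 probe sets and 0 members were called. Leaving out each line in turn gave 554 to 2591 probe sets, 1720 to 3274 pairs and 0 to 3 member probe sets called, and EGLN3 minus EGLN1 of 0.64 to 0.98. The count of probe sets was 1212 without A549, 736 without H23, 554 without H358, 647 without H460, 1086 without H661 and 736 without H1703, and that of pairs 2125 without H23, 1720 without H358 and 1925 without H460. Sign reversals were all of uncalled values: EPAS1 200878_at at -0.03 with quantile normalization, EPAS1 200879_s_at at 0.33 and VHL 203844_at at -0.04 with the 18S covariate, and the gene values of EPAS1 (-0.02), ARNT (0.07) and EGLN1 (-0.18) when taken from the probe set with the highest mean. Leaving out lines, EPAS1 200878_at ran from -0.07 to 0.32, EPAS1 200879_s_at from -0.15 to 0.12, HIF3A 219319_at from -0.04 to 0.11, ARNT 210828_s_at from -0.17 to 0.07, EGLN1 224314_s_at from -0.03 to 0.11, the EGLN3 pair from -0.07 to 0.20 and the ARNT pair 218222_x_at and 231016_s_at from -0.13 to 0.12. The cause of these changes was not tested. EPAS1 200878_at has no value under the filter that keeps probe sets with every value above -3.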
